A study of Homo sapiens with 6 samples.

Results

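The thioredoxin and peroxiredoxin system was examined in THP-1, a human cell line established from acute monocytic leukaemia, through 10 genes matched by symbol among the 25336 genes of the deposited count table. RNA was sequenced from 3 libraries of cells labelled Pristimerin and 3 libraries of cells labelled control. Pristimerin is a plant triterpenoid with a reactive quinone methide. The labels give no dose, exposure time or vehicle. Erastin, the ferroptosis inducer in the series title, appears in no sample label, so its presence in either group is unknown. They call the samples replicate biosamples without naming separate cultures, so p-values measure only library-to-library spread, possibly technical. The 10 genes are the thioredoxins TXN and TXN2, the thioredoxin reductases TXNRD1 and TXNRD2, the sulfiredoxin SRXN1 and the peroxiredoxins PRDX1, PRDX2, PRDX3, PRDX5 and PRDX6.

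Thioredoxins are small proteins that reduce disulfides in other proteins and are themselves reduced by thioredoxin reductases, which are selenoproteins that draw electrons from NADPH. Peroxiredoxins reduce hydrogen peroxide with a reactive cysteine, and most are then regenerated by thioredoxin. Sulfiredoxin repairs peroxiredoxins whose cysteine has been over-oxidised. TXN, TXNRD1, SRXN1 and PRDX1 are known to be induced by NRF2, a transcription factor that responds to electrophiles, and TXNRD1 protein is a known target of electrophilic compounds.

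The coding stretches that hold the catalytic residues show what the genes share and where they differ. They are reference sequence from GENCODE release 29 on hg38, printed 5′ to 3′ in the sense direction, and the capitals mark the codons of the catalytic cysteine or selenocysteine. The coordinates bound the stretch on the genome, and those of TXN2, PRDX3 and PRDX5 span an intron.
TXN (chr9:110251373-110251405, minus strand): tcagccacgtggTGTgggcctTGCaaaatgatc
TXN2 (chr22:36476832-36480582, minus strand): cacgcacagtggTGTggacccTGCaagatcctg
TXNRD1 (chr12:104348395-104348418, plus strand): atcctccaggctggcTGCTGAggt
TXNRD2 (chr22:19877108-19877131, minus strand): cccacggtgacaggcTGCTGAggg
SRXN1 (chr20:648816-648848, minus strand): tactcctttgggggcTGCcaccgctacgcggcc
PRDX1 (chr1:45515743-45515775, minus strand): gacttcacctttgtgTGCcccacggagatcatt
PRDX2 (chr19:12801005-12801037, minus strand): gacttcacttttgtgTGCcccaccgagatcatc
PRDX3 (chr10:119173845-119174455, minus strand): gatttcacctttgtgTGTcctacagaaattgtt
PRDX5 (chr11:64319845-64320669, plus strand): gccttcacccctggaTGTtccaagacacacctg
PRDX6 (chr1:173481354-173481386, plus strand): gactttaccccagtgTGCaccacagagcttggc
Codons are counted from the start codon of the annotated transcript. Both thioredoxins carry the paired cysteine codons (codons 32 and 35 of TXN, 90 and 93 of TXN2). Both reductases end in a cysteine codon followed by TGA (codons 647 and 648 of the 649 of TXNRD1, 522 and 523 of the 524 of TXNRD2), where TGA is read as selenocysteine rather than stop. The peroxidatic cysteine is codon 52 in PRDX1, 51 in PRDX2, 108 in PRDX3, 100 in PRDX5 and 47 in PRDX6, and the cysteine of SRXN1 is codon 99.

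Library totals lay between 19057219 and 30568593 counts, so 3 counts correspond to 0.0981 to 0.157 CPM (counts scaled to a common library size). Of 13 monocyte and myeloid granule markers, 12 averaged at least 1 CPM, among them LYZ (1510 CPM) and SPI1 (284 CPM), and CD14 averaged 0.658 CPM. Their summed level was 4260 to 4620 CPM in pristimerin libraries and 5070 to 5420 CPM in control libraries. The markers did not fall as a group. AZU1 was at 746 to 909 CPM in pristimerin libraries, against 1160 to 1310 CPM in control libraries. CTSG (511 to 566 against 715 to 787 CPM) and ELANE (647 to 754 against 820 to 952 CPM) were lower too. CD33, FCGR1A and ITGAM were also lower without overlap, whereas LYZ, SPI1, CD4, CSF1R, CEBPA, MPO and CD14 overlapped between the groups. All marker values here are scaled by library totals alone. The CPM values of the genes below are scaled by TMM, which also corrects for composition. Its factors were 0.9702 to 0.9827 in pristimerin and 1.0170 to 1.0311 in control libraries. Dividing by them raises pristimerin values and lowers control values, so the statements on CD33 and LYZ depend on the scale. The summed T cell, epithelial and erythroid markers that the table lists stayed at or below 0.15 CPM in every library. The B cell list reached 7.23 to 7.41 CPM in pristimerin libraries and 6.25 to 6.61 CPM in control libraries, and the fibroblast and endothelial list 0.677 to 1.07 CPM in pristimerin libraries and 1.61 to 2.31 CPM in control libraries. The part of these differences in the results below was not tested. In bulk RNA, fewer cells of a type and less RNA per cell cannot be told apart.

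The system did not move as a unit. TXNRD1 and PRDX1 fell to 0.666 and 0.685 times their control levels and TXNRD2 and TXN to 0.832 and 0.884 times, PRDX3 and PRDX2 rose to 1.17 and 1.15 times, and TXN2, SRXN1, PRDX5 and PRDX6 were not called. A gene is called here when edgeR's quasi-likelihood test, adjusted over all 15305 genes tested by the Benjamini-Hochberg method, gives a p under 0.05. All 10 genes passed the filter on low counts. Of the 10, 2 were called higher and 4 lower, where 14.5% of all genes tested were called higher and 15.1% lower (2216 and 2313 genes; 1523 and 3052 under upper-quartile scaling, 1389 and 3221 under library totals). The pristimerin and control libraries did not overlap in 5 of the 10, against 43.3% of all genes tested. The median log2 fold change of the 10 genes was -0.08 (range -0.59 to 0.23), and that of all genes tested was -0.01. The bars of normalised counts by library show the fall of TXNRD1 and PRDX1 next to the nearly level PRDX5 and PRDX6.

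**Figure D1:**
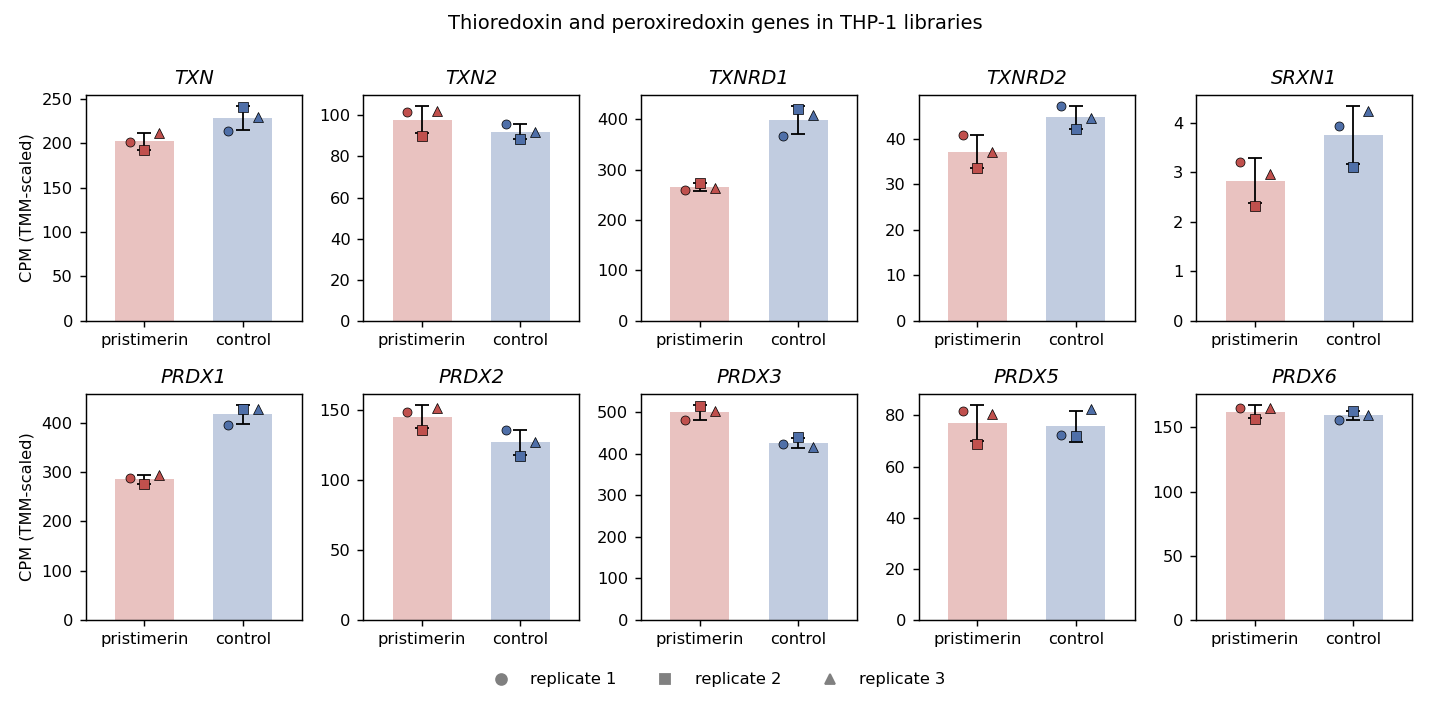
TMM-scaled CPM (y axis, from 0) of the 10 genes in pristimerin (left, red) and control (right, blue) libraries; bars are means, error bars SD (n = 3 each) and symbols the replicates. The groups are separate for TXN, TXNRD1, TXNRD2, PRDX1 and PRDX3, with the widest gap for PRDX1 (275.4 to 293.0 CPM in pristimerin against 394.5 to 428.4 CPM in control libraries).

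Levels of different genes were compared on the deposited FPKM scale, which divides counts by gene length and library total. In pristimerin libraries TXN led at 194.9 ± 9.0 FPKM, followed by PRDX1 at 165.5 ± 5.31 FPKM and PRDX3 at 144.1 ± 4.45 FPKM (SD, n = 3 each). In control libraries PRDX1 led at 253.7 ± 11.5 FPKM, followed by TXN at 231.5 ± 14.4 FPKM and PRDX3 at 129.0 ± 4.7 FPKM (SD, n = 3 each). The ranges of TXN (185.5 to 203.4 FPKM) and PRDX1 (159.4 to 168.9 FPKM) were separate in pristimerin libraries, whereas in control libraries those of PRDX1 (240.6 to 262.3 FPKM) and TXN (217.2 to 246.1 FPKM) overlapped. PRDX5 came next in both groups, at 87.3 ± 8.21 FPKM in pristimerin and 90.1 ± 6.59 FPKM in control libraries. PRDX2, PRDX6 and TXN2 lay between 57.9 and 69.6 FPKM on average in pristimerin and between 57.2 and 70.7 FPKM in control libraries. The ranges of PRDX2 and PRDX6 overlapped in pristimerin libraries, while in control libraries all PRDX6 values lay above those of PRDX2. TXNRD1 stood below TXN2 in all 3 pristimerin libraries (38.6 ± 1.06 against 57.9 ± 4.05 FPKM), and overlapped it in control libraries (60.9 ± 4.29 against 57.2 ± 2.24 FPKM). TXNRD2 at 4.42 ± 0.455 FPKM in pristimerin and 5.58 ± 0.303 FPKM in control libraries, and SRXN1 at 1.09 ± 0.18 FPKM in pristimerin and 1.52 ± 0.229 FPKM in control libraries, were far below the other 8 genes.

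**Figure D2:**
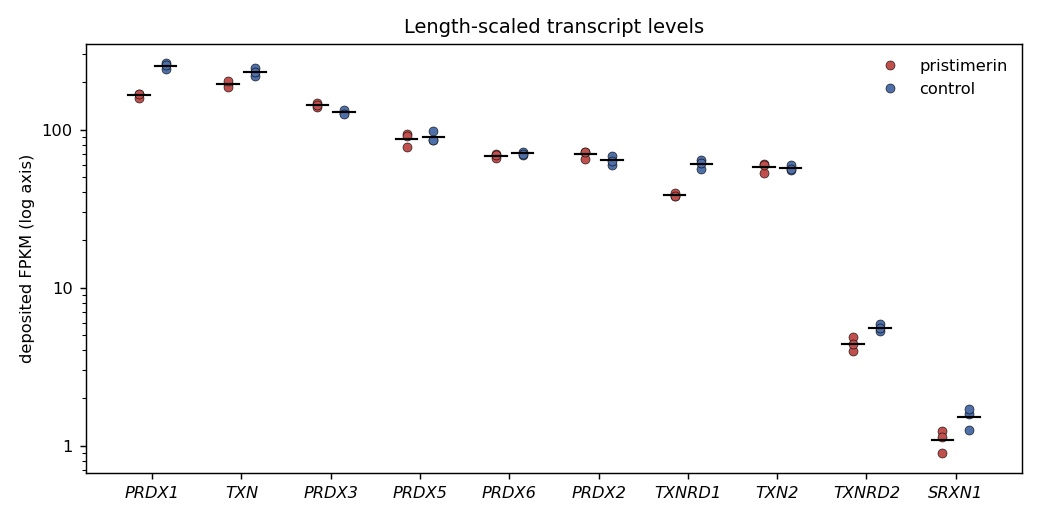
Deposited FPKM (log axis) of the 10 genes, ordered by their mean in control libraries, with pristimerin points left and control points right of each position; black lines are means (n = 3). PRDX1 is first in control libraries (253.7 FPKM) but stands below TXN in pristimerin libraries (165.5 and 194.9 FPKM), and TXNRD2 and SRXN1 lie apart at the low end.

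TXN, the cytosolic and nuclear thioredoxin (ENSG00000136810, hg38 chromosome 9, 110243810 to 110256507, minus strand), measured 201.4, 192.4 and 211.9 CPM in pristimerin libraries and 213.9, 241.3 and 229.8 CPM in control libraries. These values are scaled by TMM, which corrects library totals for composition. All 3 pristimerin values lay below all control values, but the nearest were close together. TXN fell by 0.18 on the log2 scale (SE 0.06; 95% interval -0.31 to -0.04, unadjusted; adjusted p = 0.044). The call was lost with DESeq2 size factors (adjusted p = 0.056) and without any one of 5 libraries, all but control replicate 1, where values lay between -0.19 and -0.13. TXN has 7 annotated pseudogenes in GENCODE release 29, and whether reads were shared with them is not known.

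TXN2, the mitochondrial thioredoxin (ENSG00000100348, chromosome 22, 36467046 to 36481640, minus strand), measured 101.7, 90.2 and 102.0 CPM in pristimerin libraries and 95.9, 88.4 and 92.1 CPM in control libraries. The groups overlapped. Its log2 fold change was 0.09 (SE 0.07; 95% interval -0.05 to 0.23; adjusted p = 0.35). Within each library, the FPKM of TXN was 3.23, 3.48 and 3.40 times that of TXN2 in pristimerin and 3.64, 4.46 and 4.07 times in control libraries. The ratio was lower in all 3 pristimerin libraries, a log2 difference of -0.26 (exact two-sided permutation p = 0.1, adjusted over 5 ratios 0.167). With 3 libraries against 3, such a test cannot go below 0.1, so the 5 ratios are given for their size and overlap.

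TXNRD1, the cytosolic thioredoxin reductase (ENSG00000198431, chromosome 12, 104215779 to 104350307, plus strand), had the lowest fold change of the 10 genes. It measured 258.6, 274.3 and 264.0 CPM in pristimerin libraries and 367.4, 420.6 and 408.6 CPM in control libraries, from 6226 to 12079 counts per library. The highest pristimerin value was well below the lowest control value, and the spread within either group was small beside the gap. Its level was 33.4% lower with pristimerin (log2 fold change -0.59, SE 0.06; adjusted p = 2.6e-06). The call held under all 17 alternative settings, with values from -0.66 to -0.55. By fold change, TXNRD1 stood 1421st from the most reduced of the 15305 genes tested, so many other genes had lower fold changes. ENSG00000257732, a lncRNA gene on the opposite strand within TXNRD1, was also called lower (adjusted p = 0.012 by edgeR). It measured 0.222 ± 0.0732 CPM in pristimerin and 0.637 ± 0.104 CPM in control libraries (SD, n = 3 each). That call rests on few reads, 9, 4 and 5 counts in pristimerin and 19, 20 and 10 counts in control libraries. Whether counting used the strand is not known, and sharing of reads with TXNRD1 was not tested.

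TXNRD2, the mitochondrial thioredoxin reductase (ENSG00000184470, chromosome 22, 19875517 to 19941820, minus strand), measured 40.8, 33.6 and 37.0 CPM in pristimerin libraries and 47.2, 42.2 and 44.6 CPM in control libraries. The groups did not overlap. It fell by 0.27 on the log2 scale (SE 0.08; adjusted p = 0.023), a call that was lost without pristimerin replicate 2 (-0.19) or 3 (-0.24) or control replicate 1 (-0.22) or 3 (-0.25). The FPKM of TXNRD1 was 7.74, 9.99 and 8.73 times that of TXNRD2 in pristimerin and 9.52, 12.2 and 11.2 times in control libraries. These ratios overlapped (log2 difference -0.31; exact two-sided permutation p = 0.2, adjusted 0.25), so a larger fall of the cytosolic than of the mitochondrial reductase was not shown.

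SRXN1, the sulfiredoxin (ENSG00000271303, chromosome 20, 646615 to 653200, minus strand), rested on few reads: 96, 60 and 70 counts in pristimerin libraries and 107, 89 and 82 counts in control libraries. That gave 3.20, 2.32 and 2.97 CPM in pristimerin libraries and 3.93, 3.10 and 4.23 CPM in control libraries. The groups overlapped, since pristimerin replicate 1 lay above control replicate 2. The log2 fold change was -0.39 (SE 0.17; 95% interval -0.76 to -0.03, unadjusted) and was not called (adjusted p = 0.099). It was called, lower, with the replicate number as a block (-0.40, adjusted p = 0.046) and without control replicate 2 (-0.52, adjusted p = 0.039). SRXN1 amounted to 0.00327, 0.00239 and 0.00295 of the summed FPKM of PRDX1, PRDX2 and PRDX3 in pristimerin and to 0.00364, 0.00277 and 0.00381 in control libraries, with overlap between the groups (log2 difference -0.24, between -0.39 without control replicate 2 and -0.12 without pristimerin replicate 2; exact two-sided permutation p = 0.3).

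PRDX1, an abundant cytosolic peroxiredoxin that works through 2 cysteines (ENSG00000117450, chromosome 1, 45510914 to 45542732, minus strand), fell nearly as far as TXNRD1. It measured 288.2, 275.4 and 293.0 CPM in pristimerin libraries and 394.5, 428.4 and 427.2 CPM in control libraries. The groups were more than 100 CPM apart at their nearest libraries. The level was 31.5% lower with pristimerin (log2 fold change -0.55, SE 0.06; adjusted p = 2.9e-06), and the call held under all 17 alternatives (-0.62 to -0.51). Libraries were made strand-specific per the labels, and whether counting used the strand is not given in the sources used here. PRDX1 overlaps MMACHC on the opposite strand, which had 7.44% of its CPM and a log2 fold change of 0.11.

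PRDX2, the close cytosolic relative of PRDX1 (ENSG00000167815, chromosome 19, 12796820 to 12801800, minus strand), measured 148.7, 135.7 and 151.4 CPM in pristimerin libraries and 135.8, 117.3 and 127.4 CPM in control libraries. The groups touched, with pristimerin replicate 2 just under control replicate 1. PRDX2 rose by a log2 fold change of 0.20 (SE 0.07; adjusted p = 0.039). This call was lost in 10 of 17 alternatives, among them upper-quartile scaling (0.14), library totals (0.13), both FPKM scales and the removal of pristimerin replicate 1 (0.18) or 3 (0.18) or control replicate 2 (0.14) or 3 (0.22). PRDX2 lies within HOOK2 on the same strand, which had 14.5% of its CPM and a log2 fold change of 0.03.

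PRDX3, the mitochondrial peroxiredoxin that receives electrons from TXN2 (ENSG00000165672, chromosome 10, 119167720 to 119178812, minus strand), measured 480.5, 515.5 and 502.6 CPM in pristimerin libraries and 422.4, 439.8 and 414.9 CPM in control libraries. Every pristimerin library lay above every control library. PRDX3 rose by 17.3% (log2 fold change 0.23, SE 0.06; adjusted p = 0.0055). The call was kept in 15 of 17 alternatives and missed on both FPKM scales (0.16, adjusted p = 0.057). PRDX1 has 1 annotated pseudogene and PRDX2 and PRDX3 have 4 each in GENCODE release 29, so their counts carry the same uncertainty as those of TXN.

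PRDX5, an atypical peroxiredoxin of mitochondria, peroxisomes and cytosol (ENSG00000126432, chromosome 11, 64318121 to 64321811, plus strand), measured 81.6, 68.8 and 80.6 CPM in pristimerin libraries and 72.5, 71.9 and 82.7 CPM in control libraries. PRDX6, which uses a single catalytic cysteine and also acts on phospholipids (ENSG00000117592, chromosome 1, 173477330 to 173488815, plus strand), measured 165.1, 156.2 and 165.5 CPM in pristimerin libraries and 156.0, 162.7 and 159.8 CPM in control libraries. The groups overlapped for both genes. The log2 fold changes were 0.03 for PRDX5 (95% interval -0.14 to 0.19; adjusted p = 0.83) and 0.02 for PRDX6 (95% interval -0.10 to 0.15; adjusted p = 0.79). Their signs turned under upper-quartile scaling (-0.03 for both) and library totals (-0.04 and -0.05).

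**Figure D3:**
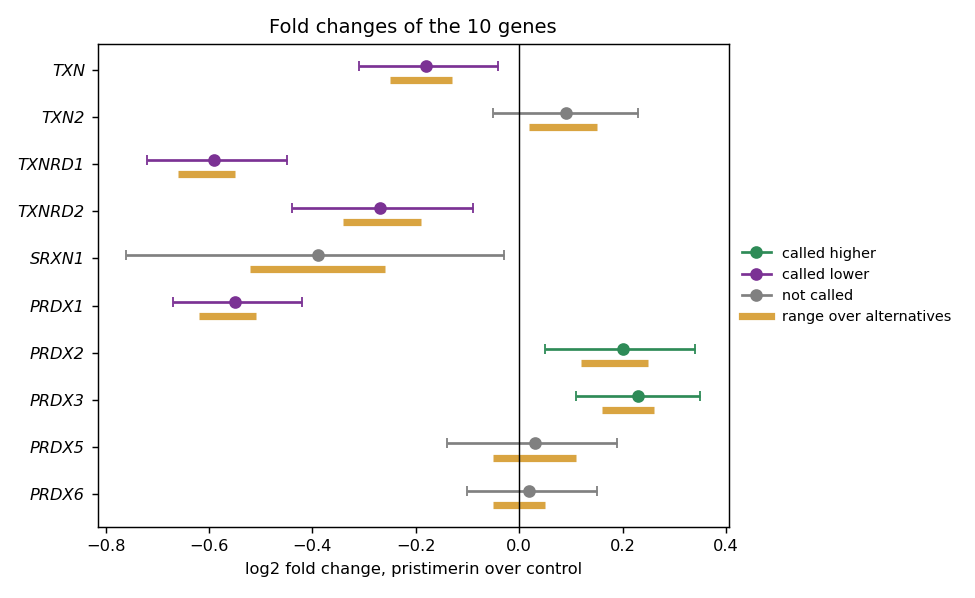
Log2 fold change of pristimerin over control (x axis) for the 10 genes, with 95% intervals from edgeR (points, n = 3 each) and the range over the alternative settings (bars). TXNRD1 (-0.59) and PRDX1 (-0.55) lie furthest from 0. The bars of PRDX5 and PRDX6 cross 0, and those of all other genes do not, including TXN2 and SRXN1, which were not called.

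The make-up of the peroxiredoxin transcripts shifted between the groups. PRDX1 supplied 31%, 30.9% and 31% of the summed FPKM of the 5 peroxiredoxins in pristimerin libraries and 40.6%, 42.7% and 42% in control libraries. PRDX3 supplied 25.7%, 28.8% and 26.4% in pristimerin libraries and 21.6%, 21.8% and 20.3% in control libraries. PRDX2 gave 13.0% ± 0.376 in pristimerin and 10.5% ± 0.953 in control libraries (SD, n = 3 each). The summed FPKM itself was 543.0, 516.6 and 545.6 in pristimerin libraries and 593.0, 614.4 and 614.4 in control libraries, without overlap.

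Ratios within a library do not depend on how libraries are scaled. The FPKM of PRDX3 was 0.830, 0.932 and 0.854 times that of PRDX1 in pristimerin libraries and 0.533, 0.511 and 0.484 times in control libraries. The ratio was 1.71-fold higher with pristimerin (log2 difference 0.78, between 0.73 and 0.81 when any 1 library was left out; exact two-sided permutation p = 0.1, adjusted over 5 ratios 0.167). The FPKM of PRDX1 was 2.34, 2.45 and 2.34 times that of PRDX2 in pristimerin libraries and 3.51, 4.42 and 4.06 times in control libraries. This ratio was also free of overlap, with a log2 difference of -0.74 (exact two-sided permutation p = 0.1, adjusted 0.167).

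**Figure D4:**
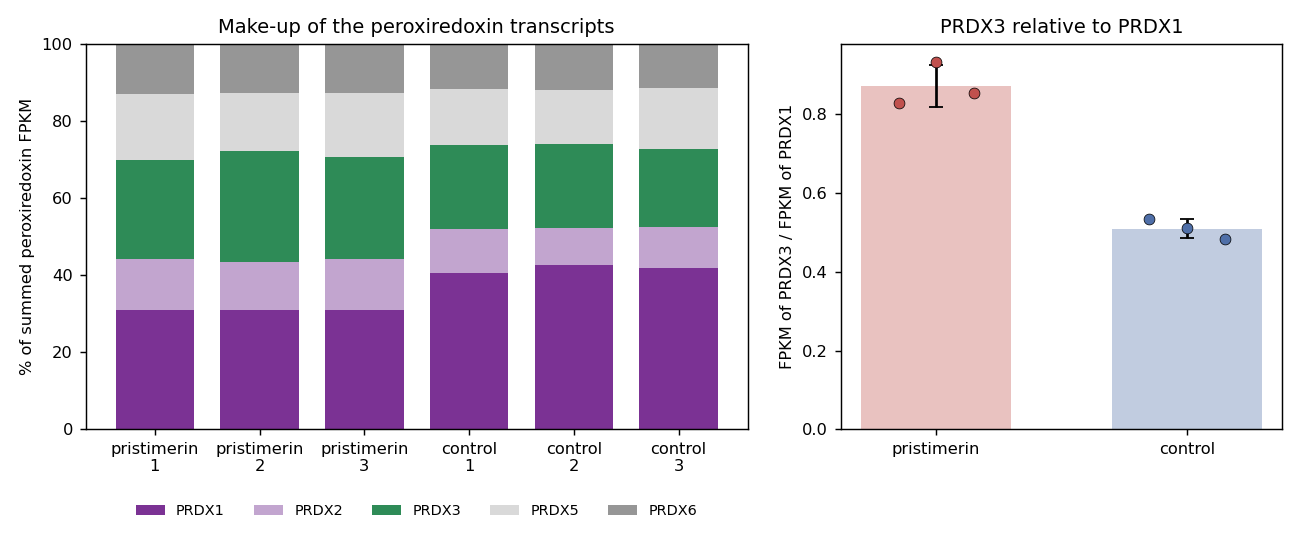
Left, share of each gene in the summed peroxiredoxin FPKM (y axis, percent) by library, pristimerin before control; right, FPKM of PRDX3 divided by FPKM of PRDX1, with means as bars, SD as error bars and libraries as points (n = 3 each). The PRDX1 segment takes 30.9% on average in pristimerin and 41.8% in control libraries, and the PRDX3 to PRDX1 ratio 0.872 and 0.509.

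Promoter sequence was available from RefSeq (GRCh38.p14) for 7 of the 10 genes, as 11 start sites. The 250 bases before each start were searched on both strands for the letters TGACNNNGC and TGAGNNNGC, the core of the antioxidant response element to which NRF2 binds with small MAF proteins. A match stood before 4 start sites of 3 genes (TXNRD1, TXNRD2 and PRDX3), and 23.9% of all 35116 promoter entries hold one. The stretch before the outermost start of TXNRD1 is shown because TXNRD1 had the lowest fold change of the 10 genes, with the match in capitals.
TXNRD1 (chr12:104215660-104215708, plus strand): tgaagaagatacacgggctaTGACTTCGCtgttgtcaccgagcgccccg
The match begins 99 bases before this start. The other TXNRD1 start had 2 matches, TGAGNNNGC at 198 bases and TGACNNNGC, on the opposite strand, at 102 bases before it, which are not printed. TXN, SRXN1, PRDX2 and PRDX5 had no match in this window, which says only that these letters are not there.

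Around the system, 80 further genes were grouped by role, and 75 of them passed the filter on low counts. Of these, 16 were called higher and 12 lower, and their median log2 fold change was 0.00. This balance turned round to 11 higher and 16 lower under both upper-quartile scaling and library totals. Over all genes tested, 14.5% were called higher and 15.1% lower, against which the counts of each list below are to be read. Among 25 thioredoxin-related proteins and regulators, 5 were called higher and 3 lower (median 0.05). TXNIP, which binds and inhibits thioredoxin, measured 317.5, 345.5 and 332.5 CPM in pristimerin libraries and 264.5, 246.9 and 164.2 CPM in control libraries. All 3 pristimerin values lay above all control values, which were spread widely. TXNIP rose by a log2 fold change of 0.56 (SE 0.12; adjusted p = 0.0017), and by 0.39 without control replicate 3, its lowest library. On both FPKM scales it was not called (adjusted p = 0.06 and 0.061). TXNRD3, a further thioredoxin reductase, was weakly expressed at 3.30, 3.21 and 2.76 CPM in pristimerin and 4.55, 5.29 and 4.23 CPM in control libraries, and fell by 0.61 on the log2 scale (SE 0.15; adjusted p = 0.0054). PRDX4, the peroxiredoxin of the endoplasmic reticulum, rose by 0.22 (SE 0.07; adjusted p = 0.023), a call lost under upper-quartile scaling (0.16), library totals (0.15), both FPKM scales and without pristimerin replicate 1 (0.23) or 3 (0.19) or control replicate 3 (0.21).

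The glutaredoxin GLRX, which reduces disulfides with glutathione, fell to 22.8, 23.6 and 26.2 CPM in pristimerin libraries, against 40.3, 43.2 and 44.5 CPM in control libraries (log2 fold change -0.82, SE 0.08; adjusted p = 1.5e-06). Nucleoredoxin, NXN, fell by the same 0.82 (SE 0.10; adjusted p = 1.5e-05). SESN3, a sestrin, rose by 0.59 (SE 0.08; adjusted p = 3.7e-05), GLRX5, a mitochondrial glutaredoxin, by 0.22 (adjusted p = 0.015), and TXNL4A, a thioredoxin-fold protein of the spliceosome, by 0.24 (adjusted p = 0.014), which was lost under upper-quartile scaling (0.18), library totals (0.16), both FPKM scales and without pristimerin replicate 1 (0.22) or 3 (0.22). Of 9 clients of thioredoxin, 2 were called higher and 0 lower (median 0.01). Both belong to ribonucleotide reductase, which makes deoxynucleotides with electrons from thioredoxin: RRM1 rose by 0.25 (adjusted p = 0.0044) and RRM2 by 0.48 (adjusted p = 3.9e-05).

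NADPH supply genes split, with 5 higher and 6 lower of 17 tested (median -0.01). The cytosolic malic enzyme ME1 measured 23.2, 27.0 and 23.2 CPM in pristimerin libraries and 52.8, 59.2 and 63.1 CPM in control libraries (log2 fold change -1.25, SE 0.09; adjusted p = 1.3e-08). The pentose phosphate enzymes PGD and TALDO1 fell by 0.94 and 0.65 on the log2 scale (SE 0.06 each; adjusted p = 8.1e-09 and 1.8e-07). TKT (-0.19) and ALDH1L2 (-0.59) were also called lower. The 5 that rose, named after their values were seen, were the folate enzymes MTHFD1 (0.50) and MTHFD2 (0.31), the cytosolic isocitrate dehydrogenase IDH1 (0.37), the mitochondrial transhydrogenase NNT (0.33) and the NAD kinase NADK (0.25).

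Of 9 genes of the selenocysteine machinery, which thioredoxin reductases need, 1 was called higher and 0 lower (median -0.05). That gene was SEPHS2, which makes the selenium donor. It measured 320.4, 342.9 and 325.9 CPM in pristimerin and 280.0, 268.7 and 263.1 CPM in control libraries (log2 fold change 0.28, SE 0.06; adjusted p = 0.0014). Of 7 tested genes for NRF2 and its partners, 1 was called higher and 1 lower (median 0.02). NFE2L2, which encodes NRF2, measured 89.5, 94.9 and 89.2 CPM in pristimerin and 90.0, 93.1 and 86.6 CPM in control libraries (log2 fold change 0.02; adjusted p = 0.84; negative under upper-quartile scaling and under library totals). KEAP1, its inhibitor, overlapped between the groups as well (-0.06, SE 0.07; adjusted p = 0.49), with -0.14 under library totals and -0.12 (without control replicate 2) to -0.01 (without control replicate 1) when single libraries were left out. The small MAF partner MAFG fell by 0.37 (SE 0.07; adjusted p = 0.00052). CUL3, the ubiquitin ligase scaffold that works with KEAP1, rose by 0.19 (adjusted p = 0.042), and this call was lost in 10 of 17 alternatives, where values were 0.10 to 0.22, and lay at the threshold without pristimerin replicate 1 (adjusted p = 0.05 after rounding).

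Other enzymes of hydrogen peroxide and superoxide went both ways, with 2 higher and 2 lower of 8 tested (median -0.09). The glutathione peroxidase GPX1 and the mitochondrial superoxide dismutase SOD2 rose by 0.41 and 0.54 (adjusted p = 0.0014 and 1.2e-05). The cytosolic superoxide dismutase SOD1 and the glutathione reductase GSR fell by 0.44 and 0.32 on the log2 scale (adjusted p = 0.0002 and 0.0017).

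**Figure D5:**
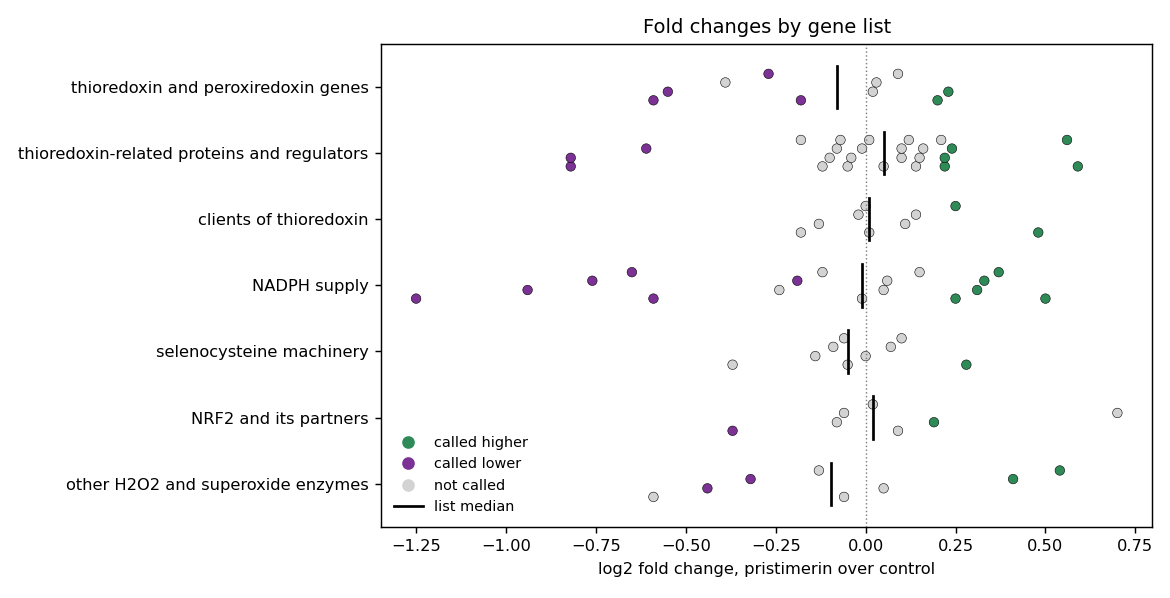
Log2 fold change of pristimerin over control (x axis) of the 10 genes and of each surrounding gene list, 1 point per tested gene, with the list median as a black line. The medians lie between -0.09 and 0.05, while called genes stand on both sides, furthest for ME1 at -1.25.

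The genes whose pattern over the 6 libraries was nearest to that of TXNRD1 included the lncRNA gene ENSG00000291006, ZNF333, ANXA2R-AS1 and ZNF252P. Their gene-centred log2 CPM differed from that of TXNRD1 by a root mean square of 0.021 to 0.042, and their log2 fold changes were -0.59 to -0.54. For SRXN1 the nearest were FOXO4, MPND, TMEM276, ENSG00000288156 and LINC01278, at 0.056 to 0.069, with log2 fold changes of -0.45 to -0.39. None of these nearest genes is in the lists described above.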

How the data were processed

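The deposited counts are whole numbers per gene and library, not normalized, per the file headers and values. The deposited FPKM values are those counts over a fixed gene length and the library total: across libraries, the implied length of a gene varied by at most 2.14e-05 (coefficient of variation). A deposited combined table repeated both. Per the submitters' processing notes the build is hg38, and which aligner, counter and strand setting were used is not given in the sources used here.

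Counts were tested with edgeR 4.0.16 in R 4.3.3 (filterByExpr with minimum count 10, TMM, quasi-likelihood F test, group as the only term) on 15305 genes, adjusted by Benjamini-Hochberg. Each SE is the log2 fold change, without its sign, over the root of F. Ratios of FPKM used exact permutation tests (scipy 1.17.1). As alternatives, scaling was by DESeq2 size factors, upper quartiles or library totals. The filter was dropped, set at 5 CPM on average, or limited to protein-coding genes. DESeq2 1.42.0, limma-voom and limma 3.58.1 on log2(FPKM + 1) and log2(FPKM + 0.1) (genes averaging 0.1 FPKM or more) replaced the test, a block for the replicate number was added, and each library was left out in turn.

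The 10 genes and all lists were chosen with earlier results of these data known. Named beside them are fixed anchor genes, up to 3 further called genes per list averaging 5 CPM or more, by size of change, and the 5 genes nearest in pattern to TXNRD1 and to SRXN1; other genes were named after their values were seen, and a few items that these rules name are not reported here. No library repeated another: the chi-square between replicates was 2.75 to 11.6 per degree of freedom.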

Additional observations from a re-analysis of the deposited data

How the results depend on the processing

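TXNRD1, PRDX1 and TXN2 kept their direction and side of the threshold under all 17 alternatives. The 5 ratios kept their direction under the alternatives that apply to them. Their exact permutation p cannot go below 0.1, so no alternative could have moved them past 0.05. Over 169 values of the 10 genes under alternatives, 130 kept both, 24 lost the call, 2 gained it and 13 changed sign, all 13 in PRDX5 or PRDX6. TXN lost its call with DESeq2 size factors (-0.17), no filter (-0.16) and DESeq2 (-0.17), and ranged from -0.22 to -0.13 without single libraries; TXNRD2 ranged from -0.34 to -0.19 and SRXN1 from -0.52 to -0.26. PRDX2 lost it with library totals (0.13), upper-quartile scaling (0.14), protein-coding genes alone (0.17), genes above 5 CPM (0.16), log2(FPKM + 1) (0.12) and log2(FPKM + 0.1) (0.13), and ranged from 0.14 to 0.25 without single libraries. PRDX3 lost it on both FPKM scales (0.16). PRDX5 changed sign under library totals (-0.04), upper-quartile scaling (-0.03), genes above 5 CPM (-0.01) and both FPKM scales (-0.05), and ranged from -0.01 to 0.11 without single libraries. PRDX6 did so under library totals (-0.05), upper-quartile scaling (-0.03), genes above 5 CPM (-0.01) and both FPKM scales (-0.05). NFE2L2 changed sign under library totals (-0.05), upper-quartile scaling (-0.04), genes above 5 CPM (-0.01), log2(FPKM + 1) (-0.04), log2(FPKM + 0.1) (-0.05) and protein-coding genes alone (-0.0034), and ranged from -0.01 to 0.05 without single libraries. The cause of these changes was not tested.

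Of the 10 genes, 1 instead of 2 was called higher under library totals, upper-quartile scaling, genes above 5 CPM and protein-coding genes alone, 0 on both FPKM scales, and 1 to 2 without single libraries; 2 to 4 were called lower without single libraries. Of the surrounding genes, 10 were called higher on both FPKM scales instead of 16, and 11 higher and 16 lower under library totals and under upper-quartile scaling. Over the whole table, 1389 genes were called higher with library totals, 1081 on log2(FPKM + 1) and 1084 on log2(FPKM + 0.1), instead of 2216, and 1534 (without control replicate 3) to 2329 lower without single libraries, instead of 2313. SRXN1 has no value among genes above 5 CPM.

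Same-numbered replicates deviated together only weakly (correlations 0.10, 0.14 and 0.04) and are taken to share only a number. Each library correlated best with its own number, a hint from the data and not from the design. On the second principal component of log2 CPM, the second-largest axis of variation, replicate 2 lay at -20.28 in pristimerin and -14.02 in control. The other libraries lay at 2.55 to 13.04. Whether the replicate number marks a batch was not tested. With the replicate block SRXN1 gained its call (-0.40), 5 of the 10 genes were lower and 2 higher, and 3150 genes were called higher and 2948 lower over the whole table. SRXN1 rests on 60 to 107 counts per library, and the part of depth in its missing call was not tested.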
